A study of Mus musculus with 4 samples.

Results

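The 9 cortical layer identity genes Cux1, Cux2, Rorb and Lamp5 (upper layers) and Bcl11b, Fezf2, Tbr1, Foxp2 and Tle4 (deep layers) were compared between wild-type mouse cortex and that of mice transgenic for APPswe/PS1ΔE9. They were chosen by gene symbol as textbook markers of the layers, 4 for the upper and 5 for the deep layers. The choice was made with earlier results of these data known. All 9 were counted among 18030 genes with reads. None of the 9 passed the test between the genotypes. All 4 upper-layer genes were nevertheless lower in both transgenic mice than in both wild-type mice, an order seen in 21.4% of all genes. Their fitted changes ran from -9.90% to -18.4%. Scaling the libraries on excitatory neuron genes moved all 4 towards zero and turned the sign of Rorb. It also raised the median log2 fold change of all genes to 0.18, and all 4 stayed below that median. Of the deep-layer genes, Tbr1 showed the same order of libraries, while Bcl11b, Foxp2, Tle4 and Fezf2 differed more between the 2 transgenic mice than between the genotypes, as Lamp5 did by a small margin.

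RNA of dissected cortex was sequenced from 2 transgenic (APP) and 2 wild-type (WT) male mice, each 12 months old, on a C57BL/6 background and housed singly under SPF conditions. The APP mice carried the double transgene APPswe/PS1ΔE9, a mutant amyloid precursor protein together with a mutant presenilin 1, both driven by the mouse prion protein promoter, and the WT mice were C57BL/6J controls without it. The genotypes were set against each other to find RNAs that differ in this model of Alzheimer's disease. Each library came from 1 mouse, so each SD below is the spread between 2 mice of a group. The SE, interval and p of a fit also draw on the spread of all other genes, and are not the spread between these mice alone. The libraries are called APP 3, APP 4, WT 1 and WT 2 here, and held 28525117, 31392983, 43881196 and 35623228 counted reads. Levels are given in CPM, the count scaled to a common library size in the usual way after TMM scaling, a correction of library size for differences in composition.

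The neocortex is built of layers whose excitatory neurons differ in birth order, connections and transcription factors. Neurons of the upper layers connect mostly to other cortical areas or receive thalamic input, whereas neurons of the deep layers send axons to the thalamus, brainstem and spinal cord. Cux1 and Cux2 are homeodomain factors that shape the dendrites of upper-layer neurons, and Rorb is a nuclear receptor best known from layer IV. Lamp5 is a membrane protein of upper-layer neurons and of a class of interneurons. Among the deep-layer genes, Fezf2 and Bcl11b direct the identity of subcerebral projection neurons, and Tbr1, Foxp2 and the co-repressor Tle4 mark corticothalamic neurons of layer VI. Bcl11b and Foxp2 are also transcribed in the striatum, and Rorb and Foxp2 in the thalamus, regions that border the cortex in a dissection.

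The genes lie on 6 chromosomes of GRCm38, and those that share a chromosome lie far apart. Cux1 spans chr5:136248135-136567490 and Cux2 chr5:121856366-122050102, both on the minus strand. Rorb spans chr19:18930605-19111196 and Tle4 chr19:14448150-14598051, both on the minus strand. Lamp5 spans chr2:136052239-136069917 and Tbr1 chr2:61802930-61814114, both on the plus strand. Bcl11b spans chr12:107910403-108003602 and Fezf2 chr14:12342094-12348189 on the minus strand, and Foxp2 spans chr6:14901349-15441977 on the plus strand. No other mouse gene matched the main transcript of a member over at least 100 bases at an identity of at least 93%. Shorter matches and minor transcripts were not searched, so reads shared with other genes at the 7 mismatches allowed in alignment are not excluded. The annotated antisense neighbours of Cux1 and Cux2 had no counts listed.

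Cux2 was the only member with 2 transcripts that each held at least 10% of its counts, Cux2-201 and Cux2-202, and these start at separate sites. Rorb had a minor transcript, Rorb-203, that starts upstream of the major Rorb-201. The 250 bases before each of these 4 start sites are shown as examples of genes with an alternative start. Both genes were lower in the APP mice at the main scaling, as were the other upper-layer genes Cux1 and Lamp5, whose windows are not shown. Sequences are from the RefSeq promoter table of GRCm38.p6, which held a window for 8 of the 9 genes, and are written 5′ to 3′ on the gene's strand, with CG in capitals. The windows are chr5:122047826-122048075 for Cux2-201, chr5:122049852-122050101 for Cux2-202, chr19:19001118-19001367 for Rorb-201 and chr19:19111197-19111446 for Rorb-203, all minus strand.
Cux2-201: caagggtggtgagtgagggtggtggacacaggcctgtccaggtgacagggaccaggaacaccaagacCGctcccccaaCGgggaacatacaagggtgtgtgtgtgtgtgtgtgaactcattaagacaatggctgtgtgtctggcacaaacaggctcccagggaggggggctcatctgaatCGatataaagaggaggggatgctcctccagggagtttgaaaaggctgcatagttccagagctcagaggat
Cux2-202: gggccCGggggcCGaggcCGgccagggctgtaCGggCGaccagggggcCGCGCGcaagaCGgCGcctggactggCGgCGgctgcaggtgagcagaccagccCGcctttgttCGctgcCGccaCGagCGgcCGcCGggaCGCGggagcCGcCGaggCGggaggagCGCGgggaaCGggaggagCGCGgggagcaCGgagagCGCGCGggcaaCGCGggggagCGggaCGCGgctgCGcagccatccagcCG
Rorb-201: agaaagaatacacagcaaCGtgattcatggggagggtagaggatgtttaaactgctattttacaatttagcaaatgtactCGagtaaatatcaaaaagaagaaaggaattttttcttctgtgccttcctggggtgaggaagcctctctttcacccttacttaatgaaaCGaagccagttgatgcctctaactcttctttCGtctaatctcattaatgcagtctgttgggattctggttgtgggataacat
Rorb-203: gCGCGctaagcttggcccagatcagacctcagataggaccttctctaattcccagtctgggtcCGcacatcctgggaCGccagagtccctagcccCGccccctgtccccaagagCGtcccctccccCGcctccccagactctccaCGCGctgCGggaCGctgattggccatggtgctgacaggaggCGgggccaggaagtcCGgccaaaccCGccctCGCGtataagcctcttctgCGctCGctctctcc

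Within each gene the windows differed in their CG content. The Cux2-202 window held 40 CG, more than 98.7% of 32851 RefSeq promoter windows of the same length, and the Cux2-201 window held 3. The Rorb-203 window held 18 CG and the Rorb-201 window 4. The median over all windows was 6, with quartiles of 2 and 16, and 92.1% of windows held at least 1 CG. The letters TATAAA, searched on both strands, were present in the Cux2-201 window alone among the 4, and in 12.4% of all windows. A match is a description of these letters, and the libraries do not measure the use of a start site, since the transcripts of a gene share most of their exons.

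All 9 genes were counted in every library. Compared per kilobase of transcript, Lamp5 was highest in the WT mice at 41.3 ± 0.874 CPM per kb (SD, n = 2). Tbr1 followed at 13.6 ± 0.341 and Rorb at 13.4 ± 0.277 CPM per kb, and their values overlapped. Tle4 stood at 10.05 ± 0.670, Bcl11b at 9.14 ± 0.241, Cux2 at 8.66 ± 0.170 and Cux1 at 7.97 ± 0.0367 CPM per kb. The lowest were Foxp2 at 6.13 ± 0.219 and Fezf2 at 4.54 ± 0.435 CPM per kb. Apart from Tbr1 and Rorb, no neighbours in this order overlapped in the 2 WT mice. In the APP mice the order was less sharp: Lamp5 was again highest at 34.5 ± 4.44 CPM per kb, Tbr1 and Rorb stood at 12.1 ± 0.667 and 12.1 ± 0.597, and Cux2, Foxp2 and Cux1 overlapped at 7.07 ± 0.599, 6.90 ± 1.58 and 6.83 ± 0.329. These levels depend on the mix of transcripts assigned to each gene, since the length is the mean over its counted transcripts weighted by their counts.

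Cux1 was at 77.4 CPM in APP 3 and 72.3 CPM in APP 4, against 87.7 CPM in WT 1 and 87.1 CPM in WT 2. Both APP mice were therefore below both WT mice, and the WT mice were nearly equal. The fitted log2 fold change of APP over WT was -0.22 ± 0.067 (SE), a change of -14.3% with a 95% interval from -22.9% to -4.76%, and its adjusted p in the edgeR quasi-likelihood test was 0.205.

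Cux2, the relative of Cux1 whose expression is more restricted to upper-layer neurons, was at 46.7 CPM in APP 3, 41.4 CPM in APP 4, 53.2 CPM in WT 1 and 54.7 CPM in WT 2. Again the groups did not overlap, and APP 4 was the lowest. Cux2 had the lowest adjusted p of the 9 genes, with a log2 fold change of -0.29 ± 0.078 and an edgeR adjusted p of 0.158. The interval of the change ran from -27.9% to -7.61%.

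Lamp5 was at 73.3 CPM in APP 3 and 61.1 CPM in APP 4, and at 81.6 and 79.2 CPM in WT 1 and WT 2. The groups did not overlap, but the APP mice were farther from each other than the nearer one was from the WT mice. The log2 fold change was -0.26 ± 0.090 with an edgeR adjusted p of 0.274.

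Rorb, not corrected for length, had the highest CPM of the 9 genes, at 101 CPM in APP 3, 108 CPM in APP 4, 118 CPM in WT 1 and 115 CPM in WT 2. The groups did not overlap, and unlike the other upper-layer genes Rorb was higher in APP 4 than in APP 3. Its log2 fold change of -0.15 ± 0.066 had an edgeR adjusted p of 0.405, and the interval of the change ran from -18.8% to -0.0154%.

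**Figure D1:**
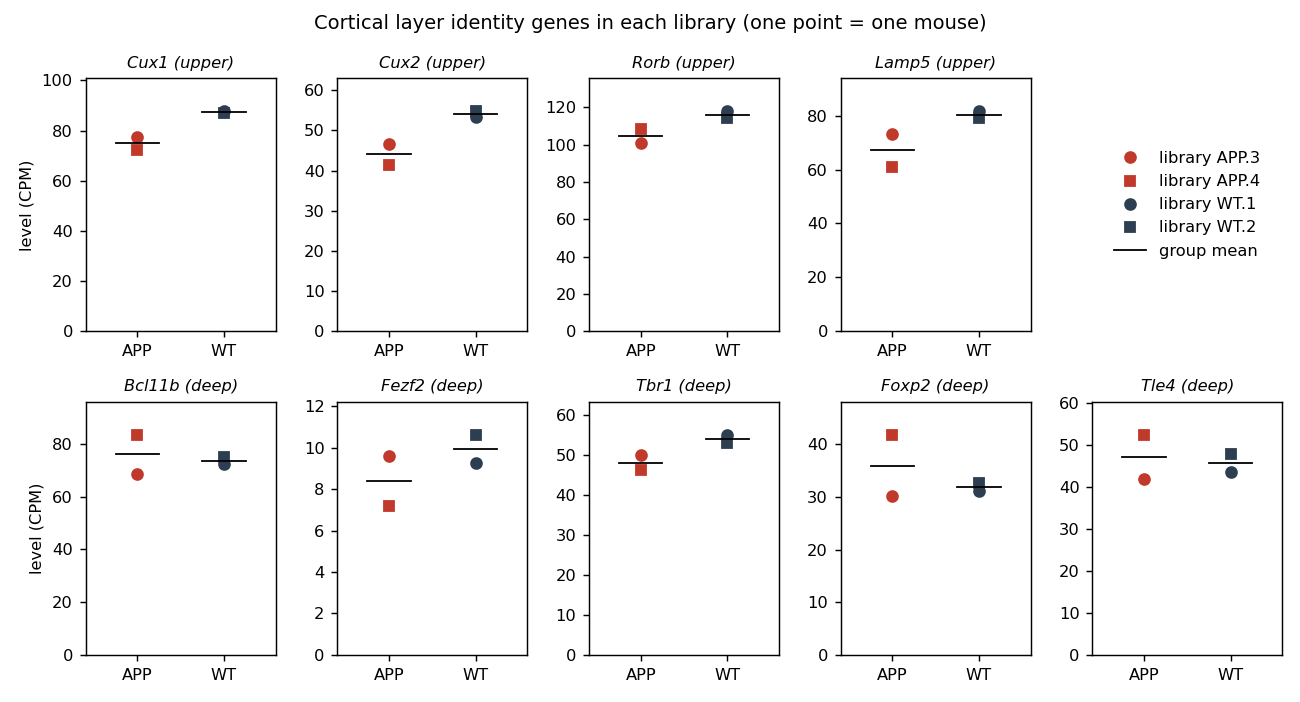
Level of each of the 9 genes in CPM (y axis, from 0) in the 2 APP and 2 WT mice; points are mice and lines are group means. Each upper-layer gene and Tbr1 has both APP points below both WT points at this scaling. Rorb and Tbr1 turn sign under the scaling on excitatory neuron genes, which raises the median of all genes to 0.18. Bcl11b, Foxp2 and Tle4 have APP 4 above and APP 3 below both WT points.

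Among the deep-layer genes Tbr1 was at 49.99 CPM in APP 3 and 46.3 CPM in APP 4, and at 55.0 and 53.1 CPM in WT 1 and WT 2. It was the single deep-layer member whose groups did not overlap, with a log2 fold change of -0.17 ± 0.072 and an edgeR adjusted p of 0.388. Fezf2, which acts upstream of Bcl11b in corticospinal neurons, was at 9.61, 7.20, 9.26 and 10.6 CPM in APP 3, APP 4, WT 1 and WT 2. APP 3 lay between the WT mice and APP 4 below them, and the log2 fold change was -0.24 ± 0.16 with an edgeR adjusted p of 0.613. Fezf2 had the fewest reads of the 9 genes, 223 to 407 per library.

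The other deep-layer genes split the APP mice. Bcl11b was at 68.8 CPM in APP 3 and 83.3 CPM in APP 4, with WT 1 and WT 2 between them at 72.3 and 75.01 CPM. Foxp2 was at 30.1 and 41.7 CPM in the APP mice and at 31.1 and 32.7 CPM in the WT mice. Tle4 was at 42.0 and 52.4 CPM in the APP mice and at 43.5 and 47.8 CPM in the WT mice. For each of these genes APP 4 was the highest library and APP 3 the lowest, and the group means differed by less than the SD of the APP mice. The edgeR log2 fold changes were 0.05 ± 0.092 for Bcl11b, 0.17 ± 0.13 for Foxp2 and 0.05 ± 0.11 for Tle4, with adjusted p of 0.903, 0.677 and 0.910, and each turned negative when APP 4 was left out, to -0.10, -0.08 and -0.12. Tle4 also turned negative without WT 1, to -0.02. The intervals still allowed changes from -10.7% to 19.6% for Bcl11b, from -8.88% to 39.5% for Foxp2 and from -12.5% to 22.5% for Tle4.

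In all, 0 of 9 members passed an adjusted p of 0.05 in edgeR, where 1.17% of the 18030 genes did, and 0 passed with the fold change of 1.5 as well, where 0.904% did. The edgeR exact test, the edgeR likelihood ratio test and DESeq2 also gave 0 of 9. At an unadjusted p under 0.05 in the quasi-likelihood fit, 5 members were lower, namely all 4 upper-layer genes and Tbr1, and 0 were higher. Over all genes 4.85% were lower and 7.47% higher at that p. Rorb and Tbr1 were near this cut-off, and missed it in the edgeR exact test, the likelihood ratio test, DESeq2 and without TMM scaling. Cux1, Cux2 and Lamp5 stayed under it in each of these settings. Both APP mice lay below both WT mice for 4 of 4 upper-layer and 1 of 5 deep-layer genes, against 21.4% of all genes and 25.6% of the 11295 genes with a mean of at least 5 CPM (19.5% of these had both APP mice above). Without APP 3, where the spread rests on the WT pair alone, 4 members passed an adjusted p of 0.05, namely Cux1, Cux2 and Lamp5 lower and Foxp2 higher, and so did 8.96% of all genes, 3.71% lower and 5.25% higher. Scaling on excitatory neuron genes, which moved the median of all genes to 0.18, brought the log2 fold changes of Cux1, Cux2 and Lamp5 to -0.043, -0.11 and -0.082 and that of Fezf2 to -0.065, and turned Rorb and Tbr1 to 0.033 and 0.012, each below that median. Bcl11b, Foxp2 and Tle4 came to 0.23, 0.36 and 0.24 under it, above the median, and 0 of 9 passed. With 2 mice a group, an exact permutation test of a single gene cannot go below a two-sided p of 0.333. In bulk tissue, fewer cells of a type and less RNA per cell cannot be told apart.

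**Figure D2:**
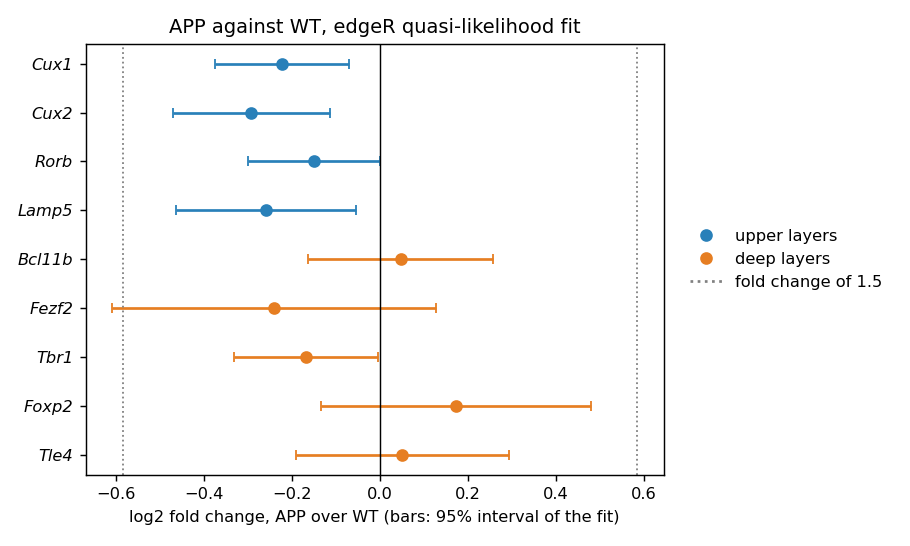
Log2 fold change of APP over WT for each gene (x axis) with the 95% interval of the edgeR quasi-likelihood fit as bars; dotted lines mark a fold change of 1.5 in either direction. The 4 upper-layer genes run from -0.29 to -0.15 and the 5 deep-layer genes from -0.24 to 0.17. Rorb and Tbr1 turn sign under the scaling on excitatory neuron genes, which raises the median of all genes to 0.18.

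The contrast of upper with deep layers was taken within each library, as the mean log2 CPM of the 4 upper-layer genes minus that of the 5 deep-layer genes, which does not depend on the scaling of libraries. It was 1.10 in APP 3 and 0.89 in APP 4, and 1.24 in WT 1 and 1.14 in WT 2. Both APP mice lay below both WT mice, APP 3 by a small margin. The group means differed by -0.20, with an SD of 0.15 between the APP mice and of 0.067 between the WT mice. Without APP 3 the difference was -0.30, and without APP 4 it was -0.09. With Bcl11b, Foxp2 and Rorb left out, which are transcribed in the striatum or thalamus as well, it was -0.13. Tle4, which had the same order of libraries as Bcl11b and Foxp2, was kept there. The contrast was also taken against parts of the deep-layer genes, divided by their own values in these mice. A gap between the parts therefore follows from the division and is not a result. Against Tbr1 and Fezf2 alone the contrast was 1.71 in APP 3, 1.87 in APP 4, 1.85 in WT 1 and 1.77 in WT 2. The groups then overlapped, and their means differed by -0.024. Against Bcl11b, Foxp2 and Tle4, the genes that split the APP mice, the means differed by -0.31, with an SD of 0.33 between the APP mice. Divided by neuron type instead, the mean log2 CPM of Bcl11b and Fezf2 differed by -0.11 between the genotypes. That of Tbr1, Foxp2 and Tle4 differed by 0.008, with an SD of 0.16 between the APP mice.

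Both sides of the contrast can be read apart. The mean log2 CPM of the upper-layer genes was 6.17 in APP 3 and 6.06 in APP 4, against 6.36 and 6.34 in the WT mice. The mean of the deep-layer genes was 5.07 and 5.17 in the APP mice and 5.12 and 5.20 in the WT mice. The upper-layer mean separated the groups at this scaling, while the deep-layer mean of the APP mice overlapped that of the WT mice.

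**Figure D3:**
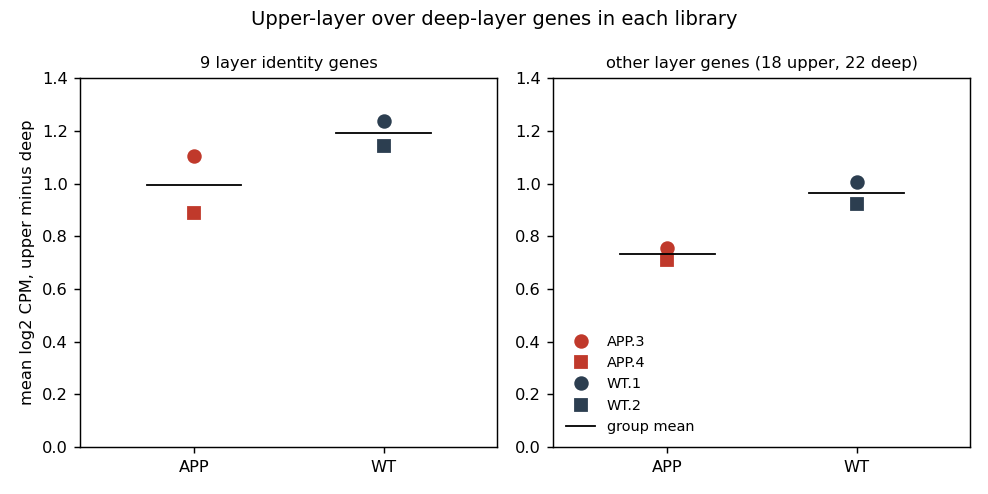
Mean log2 CPM of upper-layer genes minus that of deep-layer genes (y axis, from 0) in each mouse, for the 9 members (left) and for 18 other upper-layer and 22 other deep-layer genes (right); lines are group means. In both panels the APP mice lie below the WT mice, by -0.20 and -0.23 between the means, and APP 4 is the lowest.

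The size of the difference between the APP mice was set beside that of other genes. From APP 3 to APP 4, Foxp2 was 1.39 times as high, Tle4 1.25 times and Bcl11b 1.21 times, whereas Lamp5 stood at 0.833 and Fezf2 at 0.749 of its APP 3 level. Of the genes with a mean of at least 5 CPM, 96.7% differed less than Foxp2 between these mice, 95.2% less than Fezf2, 90.5% less than Tle4, 86.5% less than Bcl11b and 84.9% less than Lamp5. Cux1, Tbr1, Rorb and Cux2 were nearer the middle, at 44.8%, 50.1%, 45.8% and 68.5%. The median absolute log2 difference over these genes was 0.112 between the APP mice and 0.0697 between the WT mice.

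Markers of the striatum also differed between the APP mice. All 16 striatal markers, among them Pde10a, Drd1 and Penk, were higher in APP 4 than in APP 3, with a median log2 difference of 0.996, against 0.24 from WT 1 to WT 2. Their summed level was 596 CPM in APP 3 and 1137 CPM in APP 4, with WT 1 and WT 2 between them at 820 and 911 CPM. This is the order of libraries seen for Foxp2, Tle4 and Bcl11b, and 0 of the 16 markers passed the edgeR test between the genotypes or had groups that did not overlap. The dopamine receptor gene Drd2, at 0.861 CPM in APP 3 and 6.27 CPM in APP 4, and the adenosine receptor gene Adora2a, at 2.69 and 13.7 CPM, are 2 of the defining markers and were chosen for mention after their values were seen. The part of striatal RNA in the values of the deep-layer genes was not tested.

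**Figure D4:**
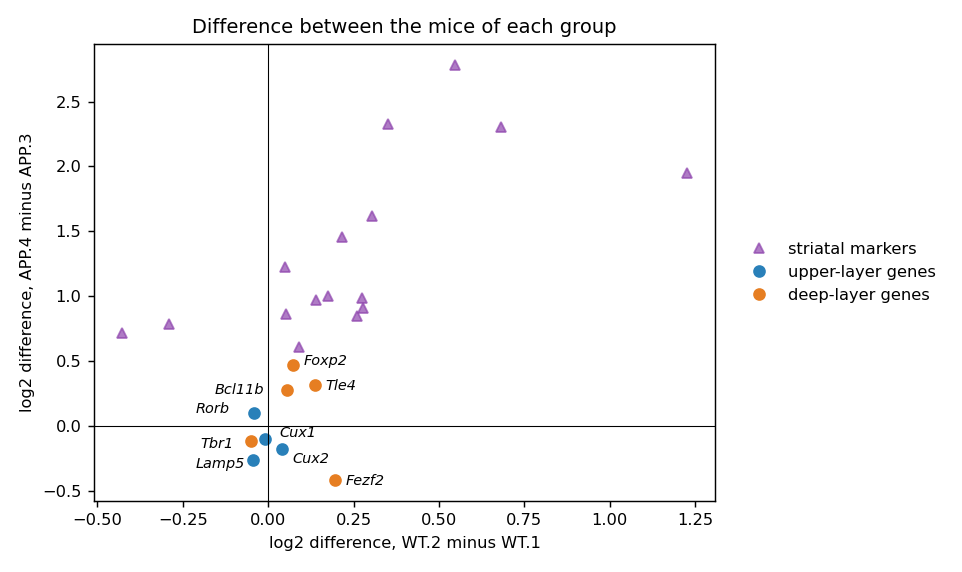
Log2 difference between the 2 APP mice (y axis, APP 4 minus APP 3) against that between the 2 WT mice (x axis, WT 2 minus WT 1) for the 9 members and 16 striatal markers, 1 point a gene. All striatal markers lie above 0 on the y axis, as do Foxp2, Tle4, Bcl11b and Rorb, while Fezf2, Lamp5, Cux2, Tbr1 and Cux1 lie below it.

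At the level of transcripts the 9 genes were counted as 29 Ensembl transcripts, and 0 of them had an adjusted p under 0.05 in edgeR, where 1.06% of all 37539 transcripts did. At an unadjusted p under 0.05, 4 were lower in APP (Cux1-201, Cux2-201, Cux2-202 and Lamp5-201), where 3.45% of all transcripts were lower, and 0 were higher, where 5.73% were. Cux2-201, the transcript with the TATAAA window, was at 32.3 and 29.1 CPM in APP 3 and APP 4 and at 34.3 and 36.8 CPM in WT 1 and WT 2. Cux2-202, the transcript with the CG-rich window, was at 14.5 and 11.7 CPM in the APP mice and at 18.2 and 17.3 CPM in the WT mice. Both were lower in each APP mouse, with log2 fold changes of -0.21 ± 0.089 and -0.44 ± 0.12 and edgeR adjusted p of 0.457 and 0.125, the latter being the lowest of the 29. Cux2-202 held 30.8% and 28.4% of the gene's counts in the APP mice and 34.2% and 31.6% in the WT mice, and the third Cux2 transcript was also lower in both APP mice. How reads in shared exons were divided between transcripts is not given in the sources used here.

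In the other members 1 transcript carried most of the reads. Rorb-201 held 93.5% of the Rorb counts and Rorb-203 held 4.69%, and both were lower in each APP mouse at 95.7 and 100.1 CPM for Rorb-201, against 110 and 107 CPM in the WT mice. Cux1-201 held 80.1% of the Cux1 counts, Foxp2-201 held 73.3% of the Foxp2 counts, and the main transcripts of Bcl11b, Lamp5, Tbr1, Tle4 and Fezf2 held at least 98.5% of theirs. By transcript, 7 of 7 for Foxp2 were higher in APP 4 than in APP 3, as were 2 of 2 for Bcl11b, 2 of 2 for Tle4 and 3 of 3 for Rorb. So were 2 of 7 for Cux1, 1 of 3 for Cux2, 0 of 2 for Lamp5, 0 of 2 for Tbr1 and 0 of 1 for Fezf2. Counted by gene and not by transcript, 9138 of all 18030 genes were higher in APP 4 than in APP 3. The share over all transcripts is not given here. Transcripts of a gene share exons, so these counts cannot tell whether more than 1 transcript of a gene differed.

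Other genes known from the upper and deep layers were examined by lists written with earlier results of these data known. Of 18 other upper-layer genes 13 had a negative and 5 a positive log2 fold change, with a median of -0.11 beside -0.001 over all genes. Both APP mice were below both WT mice for 10 of the 18 and above them for 3, against 21.4% and 21.5% of all genes, and 0 passed the edgeR test. The median was 0.07 when the libraries were scaled on excitatory neuron genes, below the median of all genes under that scaling. Stard8 had the largest negative value among those with at least 5 CPM, at 18.9 and 16.0 CPM in the APP mice and 22.01 and 25.1 CPM in the WT mice, a log2 fold change of -0.43 with an edgeR adjusted p of 0.133. Pou3f2, a POU factor of upper-layer neurons, was at 41.8 and 39.3 CPM in the APP mice and 49.4 and 44.6 CPM in the WT mice, a log2 fold change of -0.21 with an edgeR adjusted p of 0.303. Wfs1 had a positive value of 0.25 with an adjusted p of 0.325.

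Of 22 other deep-layer genes 16 had a positive and 6 a negative log2 fold change, with a median of 0.11. Both APP mice were above both WT mice for 7 of the 22 and below them for 2, against 21.5% and 21.4% of all genes, and 0 passed the edgeR test. Lmo3, a LIM-only cofactor, was at 108 and 120 CPM in the APP mice and 87.8 and 89.4 CPM in the WT mice, a log2 fold change of 0.36 with an edgeR adjusted p of 0.0588. Tshz2 was at 28.4 and 23.4 CPM against 21.1 and 15.3 CPM, and Rprm, a gene of layer VI, at 19.3 and 18.5 CPM against 14.8 and 15.7 CPM. Their log2 fold changes were 0.50 and 0.31 with adjusted p of 0.209 and 0.191. Deptor, a gene of layer V that inhibits mTOR, was lower in both APP mice at 31.7 and 30.2 CPM against 42.4 and 36.7 CPM, with a log2 fold change of -0.36 and an adjusted p of 0.129. The mean log2 CPM of the 22 genes was 4.25 and 4.22 in the APP mice and 4.13 and 4.15 in the WT mice, so that both APP mice lay above both WT mice.

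The contrast of the other upper-layer with the other deep-layer genes was 0.76 in APP 3, 0.71 in APP 4, 1.005 in WT 1 and 0.92 in WT 2. The groups did not overlap and differed by -0.23, and the APP mice differed by less (SD of 0.033) than for the 9 members. As with the members, no test was made of this contrast.

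The genotype labels and the makeup of the tissue were checked in the same fit. App, whose counts include reads of the transgene where the sequences agree, was at 2678 and 2389 CPM in the APP mice and at 857 and 905 CPM in the WT mice, and Prnp, whose promoter drives the transgene, rose by 1.71 on the log2 scale (edgeR adjusted p = 1.47e-05). Of 12 excitatory neuron genes 10 had a negative value, with a median log2 fold change of -0.11, and 0 passed. Both APP mice were below both WT mice for 4 of these 12 and for 6 of 13 interneuron genes. They were above for 0 in either list, against 21.4% below and 21.5% above over all genes. Medians were -0.14 over 13 interneuron genes, 0.38 over 12 thalamic genes, 0.06 over 9 genes of the hippocampal formation and -0.08 over 8 endothelial genes, with 0 passing in each. Thalamic markers summed to 105 and 98.6 CPM in the APP mice and to 84.6 and 83.2 CPM in the WT mice. Slc17a6 held 42.9 and 36.7 CPM of the APP sums and 32.1 and 29.7 CPM of the WT sums, with a log2 fold change of 0.36. Lhx2, with a log2 fold change of -0.01, was in this list and also in that of the other upper-layer genes. Glial lists were higher: 6 of 11 microglial genes passed both cut-offs, Csf1r included (0.865% of all genes did so and were higher), as did 2 of 10 astrocyte genes and 1 of 10 oligodendrocyte genes, with medians of 0.74, 0.19 and 0.46, and summed microglial levels were 440 and 536 CPM against 270 and 267 CPM. The part of these cell types in the values of the layer genes was not tested.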

How the data were processed

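Cortex RNA was sequenced by the authors as ribosomal-depleted, strand-specific paired reads, demultiplexed with CASAVA 1.8 per the submitters' processing notes, filtered against ribosomal sequences and aligned with FANSe2 to mouse Ensembl RNA with 7 mismatches allowed; the Ensembl release is not given in the sources used here. The deposited values used are whole-number counts per transcript for 37539 transcripts with at least 10 counts over the 4 libraries. The authors' fold changes, p-values, FDR and 4 columns of log2 CPM were not used.

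Counts were summed per gene by transcript ID in GENCODE M21 (98.2% matched, 388 more by symbol ignoring case), giving 18030 features, because the deposited symbols named 1 member exactly and 7 ignoring case. Genes were tested in edgeR 4.0.16 (quasi-likelihood, TMM scaling, R 4.3.3) with Benjamini-Hochberg adjustment over all genes and the study's cut-offs, adjusted p under 0.05 and a fold change of 1.5. The script was tested on simulated data. Log2 CPM used a prior count of 2. Columns APP 3 and APP 4 could be tied to the APP group but not to a sample number. The members and lists were chosen with earlier results of these data known. Genes named beside the members were the 4 of largest absolute log2 fold change with at least 5 CPM in each list of other layer genes, any passing the test there, the most abundant of other lists, App and Prnp, and member transcripts with at least 10% of their gene's counts. Some genes that this rule names are not reported here. Ctgf of the deep-layer list was matched as Ccn2, its current symbol. Alternatives were other scalings (library totals, DESeq2 1.42.0 size factors, excitatory neuron genes), filters, tests, gene sums and leaving out each mouse.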

Additional observations from a re-analysis of the deposited data

How the results depend on the processing

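The count of genes past both cut-offs was 163, and became 298 with scaling on excitatory neuron genes, 354 with the edgeR exact test, 389 with the likelihood ratio test, 91 at a fold change of 2 and 285 by transcript, and ran from 132 to 575 when 1 mouse was left out (575 without APP 3, 444 without APP 4). A group left with 1 mouse is assumed to vary like the other group. Members with an adjusted p under 0.05 numbered 0, and 0 to 4 with a mouse left out: without APP 3, Cux1, Cux2 and Lamp5 were lower (adjusted p = 0.00746, 0.00147 and 0.000232) and Foxp2 higher (0.00264), where 3.71% of all genes were lower and 5.25% higher and the spread rests on the WT pair. Scaling on excitatory neuron genes moved the median of all genes to 0.18 and turned Rorb to 0.033 and Tbr1 to 0.012, both under that median, and brought Cux1 to -0.043, Cux2 to -0.11, Lamp5 to -0.082 and Fezf2 to -0.065. With a mouse left out, Bcl11b ran from -0.10 to 0.18, Foxp2 from -0.081 to 0.39 and Tle4 from -0.12 to 0.20 (-0.02 without WT 1), Cux1 from -0.27 to -0.17, Cux2 from -0.38 to -0.21, Lamp5 from -0.40 to -0.13, Rorb from -0.20 to -0.10, Tbr1 from -0.23 to -0.11, Fezf2 from -0.46 to -0.04, and the contrast of upper with deep layers from -0.30 to -0.09. The median of other upper-layer genes, -0.11, ran from -0.15 to -0.06 with a mouse left out and was 0.073 with scaling on excitatory neuron genes. That of other deep-layer genes, 0.11, ran from 0.052 to 0.17 with a mouse left out, and was 0.28 with that scaling and 0.17 with deposited symbols matched ignoring case, a choice made after seeing the data. The cause of these changes was not tested. No paired analysis was made, since the labels give no pairing between APP and WT mice. The columns of the APP group carry the numbers 3 and 4, which do not match the numbers of the WT mice or of the samples' titles. With 223 to 407 reads per library, Fezf2 is the member most limited by depth.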
